A study of Mus musculus with 6 samples.

Results

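Periportal hepatocytes lie where portal blood enters the liver lobule, and the 9 genes described here (Cyp2f2, Hal, Sds, Sdsl, Uroc1, Cdh1, Hsd17b13, Aldh1b1 and Pigr) are genes of those cells. They were chosen by symbol from the deposited expression table, and all 9 were present among the 17738 genes with values. The libraries were made from poly(A)-selected liver RNA of ICR mice, an outbred stock. Mice of the extract group were dosed into the stomach for 1 week with an ethyl acetate fraction prepared from hydrosoluble extract of Chebulae Fructus, the fruit of Terminalia chebula, and the daily dose was 1 g/kg. Mice of the water group were given water by that route for 1 week, at 10 ml/kg. Each group had 3 libraries, called extract 1 to 3 and water 1 to 3. The labels give neither sex nor age and do not say that each library came from its own mouse, so p-values measure the spread between libraries, which may be technical.

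Liver lobules are zoned along the flow of blood from the portal tract to the central vein. Periportal hepatocytes carry much of the liver's gluconeogenesis, urea synthesis and amino acid breakdown, while pericentral cells make glutamine and much of the cytochrome P450 that handles foreign compounds. Wnt signals from the endothelium of the central vein act through β-catenin to keep the pericentral genes on, and glucagon is among the signals that favour the periportal ones.

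Values were read as FPKM, sequenced fragments scaled to transcript length and library size. The table names no unit, so comparisons of level between genes rest on that reading. Sums over a library were 536615 to 564549 FPKM in the extract group and 517984 to 583245 FPKM in the water group, and the read depth is unknown. limma was run on log2(FPKM + 1) for the 10282 genes that had 1 FPKM or more in 3 or more libraries, and all 9 periportal genes were among them. Extract 3 and water 1 lay nearest to the other group on the first principal component, which held 37.4% of the variance, at -2.06 for extract 3 and 3.81 for water 1. Extract 1 and 2 lay at -14.2 and -26.8, and water 2 and 3 at 23.1 and 16.2. On the second component, which held 24.1%, water 1 lay apart at -29.6, and every other library lay between 2.74 and 11.9. The libraries hold whole liver, so the zone in which a transcript was made was not measured, and fewer cells of a type cannot be told apart from less RNA per cell. Hepatocyte transcripts were abundant in every library: the 10 pan-hepatocyte markers summed to 80223 to 91766 FPKM in extract livers and 94291 to 99350 FPKM in water livers. Most of that sum was albumin, Alb, at 50716 FPKM on average in extract livers and 65842 FPKM in water livers, while the log2 fold change was above 0 for 7 of the 10 markers (median 0.16).

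Between the groups, Cdh1 stood highest in the extract livers relative to water, at 2.43 times the water mean, followed by Cyp2f2 at 1.43 times. Sds had the lowest relative level, at 0.628 times the water mean, with Sdsl at 0.677 times and Hsd17b13 at 0.735 times. Hal, Uroc1 and Pigr had mean levels between 0.971 and 1.04 times those in water. None of the 9 passed limma at a Benjamini-Hochberg adjusted p below 0.05 over all genes tested, and 0.0486% of all tested genes did (5 genes, with 0.0195% higher and 0.0292% lower). At an unadjusted p below 0.05 there were 3 of the 9, Cdh1 and Cyp2f2 on the higher side and Sds on the lower, against 10.3% of all genes tested (6.5% higher and 3.82% lower). The extract and water values did not overlap for 4 of the 9, with Cdh1 and Cyp2f2 above and Sds and Sdsl below, against 15.9% of all genes tested (10.0% above and 5.88% below). The median log2 fold change was -0.04 over the 9 genes and 0.03 over all tested genes. Of the 9 values 4 were positive and 5 negative, while 57.5% of all tested genes had a positive value.

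**Figure D1:**
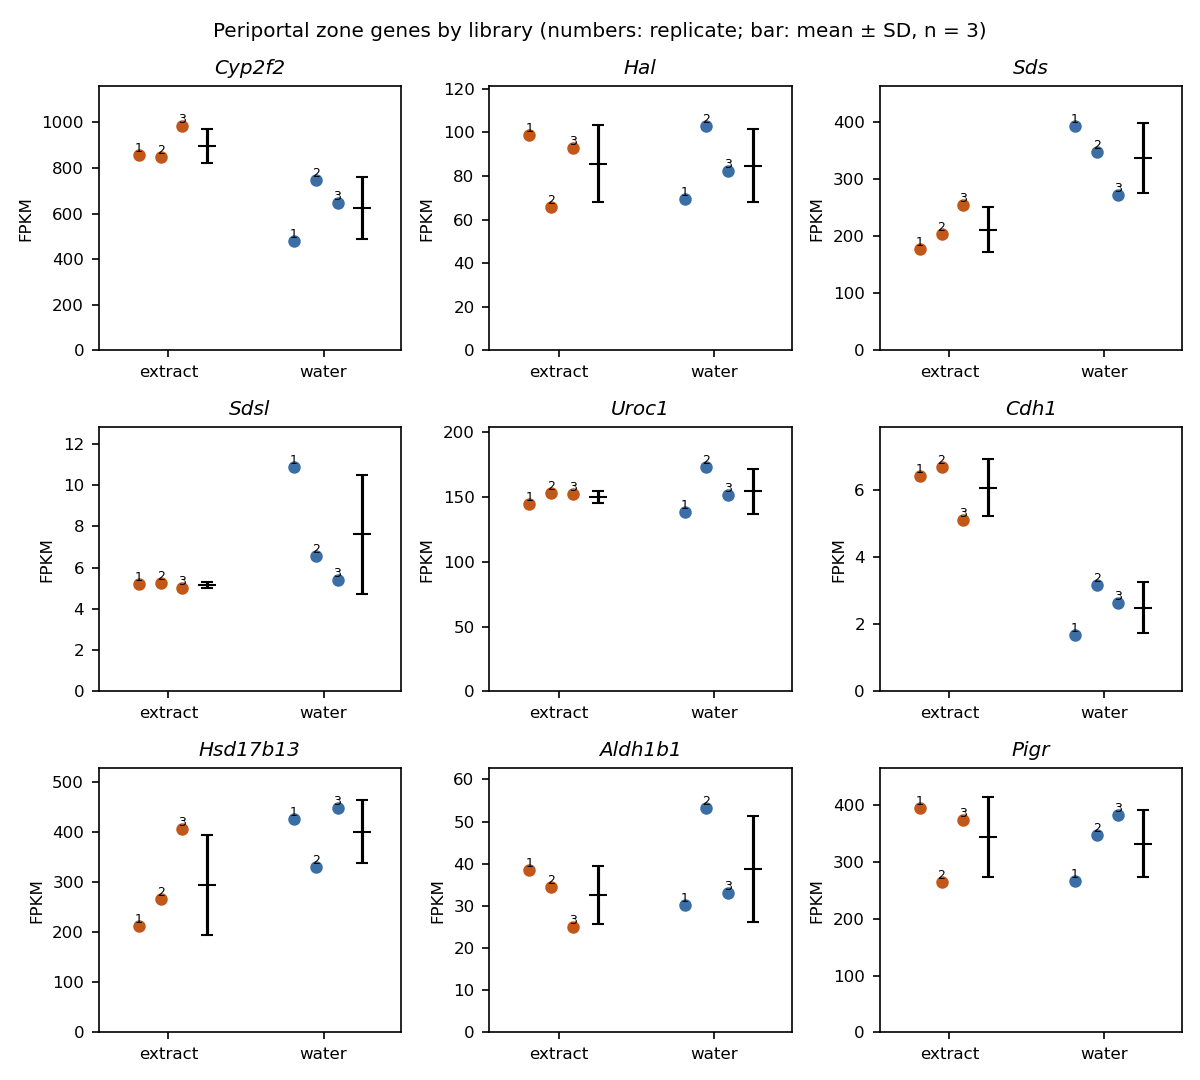
FPKM of each of the 9 periportal zone genes (vertical axes, each from 0) in the 3 extract and 3 water libraries, with the replicate number above each point and the mean ± SD beside each group. Cdh1 and Cyp2f2 lie higher in every extract library than in any water library, Sds and Sdsl lie lower, and the other 5 genes overlap.

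Promoter sequence was available in RefSeq (GRCm38.p6) for 6 of the 9 genes. The 250 bases before the annotated start are printed for the most abundant member (Cyp2f2), for the histidine-degrading enzyme with the most motif matches (Hal), for a gene with 2 TCF/LEF cores (Hsd17b13), and for Pigr, the IgA receptor. The 4 were chosen after their values were seen. Each runs 5′ to 3′ along the gene, and capitals mark a match on either strand to any of 6 searched motifs.
Cyp2f2, chr7:27119705-27119954, plus strand: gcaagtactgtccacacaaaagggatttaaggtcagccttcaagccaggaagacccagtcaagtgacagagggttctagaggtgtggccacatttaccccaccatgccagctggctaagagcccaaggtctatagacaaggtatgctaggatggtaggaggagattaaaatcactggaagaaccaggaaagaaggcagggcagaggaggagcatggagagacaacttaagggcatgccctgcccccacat
Hal, chr10:93488518-93488767, plus strand: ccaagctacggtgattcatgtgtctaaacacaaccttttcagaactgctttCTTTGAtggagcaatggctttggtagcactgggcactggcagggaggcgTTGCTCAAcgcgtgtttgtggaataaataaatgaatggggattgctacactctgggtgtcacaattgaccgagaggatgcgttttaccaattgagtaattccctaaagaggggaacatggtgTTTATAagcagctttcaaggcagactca
Hsd17b13, chr5:103977389-103977638, minus strand: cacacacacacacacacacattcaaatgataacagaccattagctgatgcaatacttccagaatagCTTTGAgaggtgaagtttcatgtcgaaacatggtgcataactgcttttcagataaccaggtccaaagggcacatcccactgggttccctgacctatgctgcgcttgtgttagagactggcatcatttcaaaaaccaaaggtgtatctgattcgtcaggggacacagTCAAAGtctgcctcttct
Pigr, chr1:130826434-130826683, plus strand: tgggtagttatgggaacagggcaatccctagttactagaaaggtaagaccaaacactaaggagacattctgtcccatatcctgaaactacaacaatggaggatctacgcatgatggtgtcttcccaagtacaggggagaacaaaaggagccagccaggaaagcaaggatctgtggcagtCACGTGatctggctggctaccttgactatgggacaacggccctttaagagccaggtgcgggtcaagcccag

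The motifs were the TCF/LEF core TCAAAG, through which β-catenin acts, the TATA box TATAAA, the E-box CACGTG, the HNF4A site CAAAGTCCA, the STAT site TTCNNNGAA and the C/EBP site TTGCNNAA. They were searched on both strands and could overlap. The TCF/LEF core was present in 4 of the 6 windows (Aldh1b1, Hsd17b13, Uroc1 and Hal) and in 13.8% of all 32851 RefSeq promoter windows of that length. In Hsd17b13 it began at positions -184 and -18, counting back from the start of the gene. The match at -184 was on the strand opposite to the gene, and that at -18 on the gene's own strand. Only Hal among the 6 held the TATA box letters, from -28 to -23, which 12.4% of all windows held, and the C/EBP site, which 9.56% held. The TATA match in Hal was on the strand opposite to the gene, so it reads TTTATA along the gene. Pigr held the E-box from -71 to -66, present in 6.02% of all windows. The HNF4A and STAT letters were in none of the 6, against 0.384% and 7.02% of all windows, and Cyp2f2 held none of the 6 motifs. A match here is a description of the letters in the window and not a binding site.

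Cdh1 encodes E-cadherin, the adhesion protein of epithelial junctions, which periportal hepatocytes and bile duct cells both carry. It lies on chromosome 8 from 106603350 to 106670247 (GRCm38.p6, gene ID 12550). Cdh1 had 6.41, 6.66 and 5.09 FPKM in extract 1 to 3, against 1.67, 3.15 and 2.64 FPKM in water 1 to 3. All 3 extract values lay above all 3 water values, and extract 3 and water 2 were the closest pair. The means were 6.05 ± 0.84 FPKM in extract livers and 2.49 ± 0.75 FPKM in water livers (SD, n = 3 each). This is a log2 fold change of 1.03 (standard error 0.18, 95% confidence interval 0.61 to 1.46, limma adjusted p = 0.117, rank 48 of the 10282 genes by p). The limma adjusted p was 0.0369 under library weights, which give less weight to libraries that vary more. It was 0.0505 without water 1 and extract 3, the libraries nearest to the other group on the first principal component. Nearness was judged from these same values, so that omission can by itself widen group differences. It raised the share of all tested genes at an unadjusted limma p below 0.05 from 10.3% to 17.6%. Over all 18 alternatives that gave a value, the adjusted p of Cdh1 lay between 0.0369 and 0.335, the highest being without extract 2.

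Bile duct markers were examined because those cells express Cdh1. The 10 cholangiocyte markers summed to 40.7, 33.4 and 27.3 FPKM in extract 1 to 3, against 25.9, 20.0 and 24.4 FPKM in water 1 to 3. Most of that sum was Spp1, osteopontin, which other liver cells can also make, at 27.1, 22.7 and 16.5 FPKM in extract livers and 16.5, 10.6 and 15.0 FPKM in water livers (limma adjusted p = 0.382). The duct keratin Krt19 had 2.89, 1.15 and 0.63 FPKM in extract livers and 1.13, 0.73 and 1.09 FPKM in water livers. Its extract values spanned the water ones, and the lowest was in extract 3. The epithelial adhesion gene Epcam had 0.75, 0.42 and 0.47 FPKM in extract livers and 0.47, 0.21 and 0.28 FPKM in water livers, and the keratin Krt7 and the duct transcription factor Sox9 lay at or below 0.70 FPKM in all 6 libraries. Cftr and Ggt1 were listed at 0 or up to 0.05 FPKM in extract livers and up to 0.03 FPKM in water livers. Of the 10 markers, 3 reached the level needed for testing, and 0 were called by limma. At an unadjusted p below 0.05 there was 1, against 10.3% of all tested genes. The part of bile duct cells in the Cdh1 difference was not tested.

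**Figure D2:**
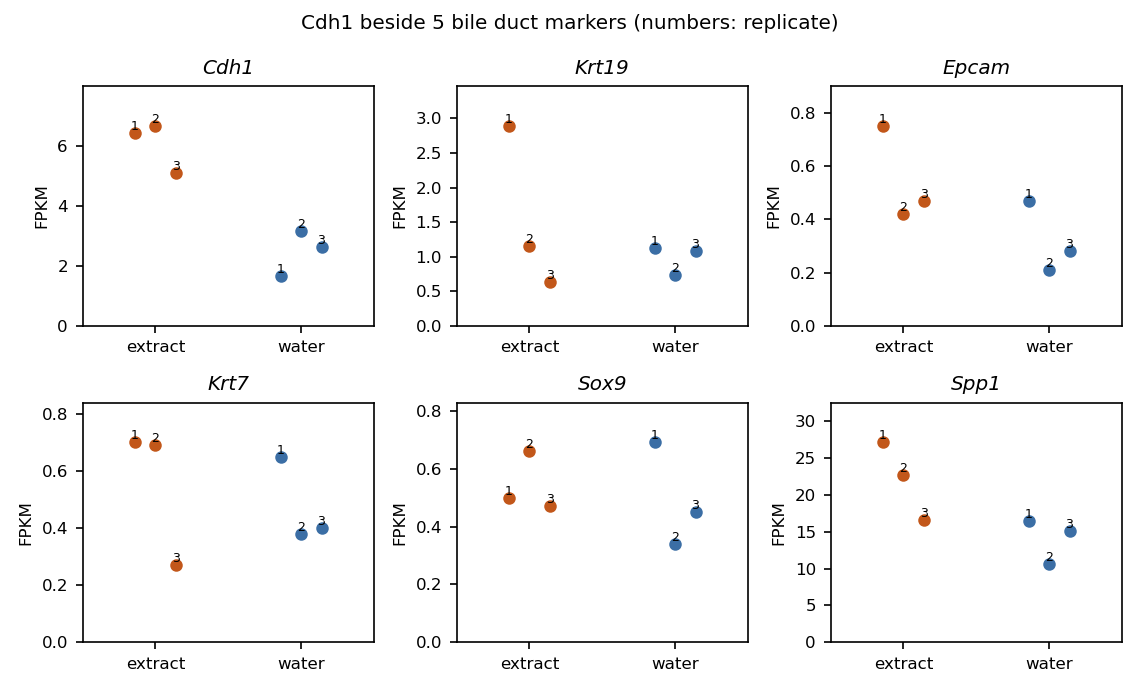
FPKM of Cdh1 and 5 bile duct markers (vertical axes, each from 0) in the 3 extract and 3 water libraries, with the replicate number above each point. Cdh1 separates the groups, while Krt19, Krt7, Epcam and Sox9 overlap between them, and Spp1 lies between 16.5 and 27.1 FPKM in extract livers and between 10.6 and 16.5 FPKM in water livers.

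E-cadherin is held at the junction by catenins and works beside nectins. Of 11 adherens junction genes, Cdh1 included, 0 were called by limma, and at an unadjusted p below 0.05 there were 2 higher and 0 lower, against 6.5% higher and 3.82% lower among all tested genes. Their median log2 fold change was 0.19, against 0.03 over all tested genes. Nectin3, which encodes a nectin of these junctions, had 17.97, 18.7 and 16.3 FPKM in extract livers, against 12.9, 12.5 and 12.3 FPKM in water livers (log2 fold change 0.46, limma adjusted p = 0.201). Ctnnb1, β-catenin itself, had 35.0, 37.5 and 35.3 FPKM in extract livers, against 25.4, 29.5 and 34.2 FPKM in water livers (limma adjusted p = 0.531). Neither gene's groups overlapped, and extract lay wholly above water in 10.0% of all tested genes. N-cadherin, Cdh2, the other classical cadherin of hepatocytes, had 24.1, 20.1 and 26.9 FPKM in extract livers and 13.7, 20.7 and 22.6 FPKM in water livers. It was more abundant than Cdh1 in every library and its groups overlapped.

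Cyp2f2 encodes a cytochrome P450 known for oxidising naphthalene in mouse airways and is a standard periportal marker in mouse liver. It lies on chromosome 7 from 27119955 to 27133660 (gene ID 13107), and exons of the antisense transcript Gm15883 overlap its own. Whether the counting used strand is not given in the sources used here, so reads from the 2 strands may not be told apart. Cyp2f2 had 859, 847 and 983 FPKM in extract 1 to 3, against 481, 749 and 647 FPKM in water 1 to 3. Each extract library was above each water library, extract 3 was the highest of all 6 and water 1 the lowest. Its means were 896 ± 75.3 FPKM in extract livers and 626 ± 135 FPKM in water livers (SD, n = 3 each). In limma its log2 fold change was 0.54 (standard error 0.19, 95% confidence interval 0.11 to 0.97, adjusted p = 0.377). It was 0.36 without water 1 and 0.29 without water 1 and extract 3.

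Cyp2f2 was the most abundant of the 9, at rank 88 by mean level among the tested genes, and Cdh1 the least, at rank 6733. To set a periportal P450 against a pericentral one inside each library, Cyp2f2 was compared with Cyp2e1, an ethanol-oxidising P450 of pericentral cells. The log2 ratio of Cyp2f2 over Cyp2e1, taken as here in all ratios after adding a pseudocount of 1 FPKM to each gene, was -2.69, -2.81 and -2.84 in extract 1 to 3, against -3.68, -2.57 and -3.16 in water 1 to 3. Water 2 lay above all extract libraries, and water 1 and water 3 below all of them. The difference in means was 0.36 (two-sided exact permutation p = 0.4, where the smallest p for 3 against 3 is 0.1), and with any one library left out it lay between 0.08 without water 1 and 0.64 without water 2 (exact permutation p = 0.1, the smallest possible with 1 library left out). Without water 1 and extract 3 it was 0.11.

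Sds encodes serine dehydratase, which converts serine to pyruvate and ammonia and feeds gluconeogenesis, and which glucagon is known to induce in rat liver. Sdsl encodes a serine dehydratase-like enzyme. Both lie on chromosome 5, Sds from 120476547 to 120483932 on the plus strand (gene ID 231691) and Sdsl from 120458193 to 120472825 on the minus strand (gene ID 257635), so the pair is read in opposite directions from starts 3722 bases apart. Sds had 178, 203 and 254 FPKM in extract 1 to 3, against 393, 348 and 272 FPKM in water 1 to 3. Extract 3, the highest of its group, was close to water 3, the lowest of its own, and the groups did not overlap. The means were 212 ± 38.7 FPKM in extract livers and 338 ± 61.1 FPKM in water livers (SD, n = 3 each), or -0.67 as a log2 fold change (standard error 0.19, 95% confidence interval -1.11 to -0.23, limma adjusted p = 0.264). Over the alternatives it lay between -0.82 and -0.55, and its limma adjusted p between 0.0805 and 0.641. Exons of Plbd2 and of the antisense transcript Gm15690, both on the other strand, overlap those of Sds, with the same limit on strand. Plbd2 had 30.8, 29.9 and 40.3 FPKM in extract livers and 27.6, 30.1 and 33.9 FPKM in water livers, well below Sds in every library.

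Sdsl had 5.22, 5.24 and 5.00 FPKM in extract 1 to 3, against 10.9, 6.58 and 5.39 FPKM in water 1 to 3. The extract values were nearly equal and lay just under water 3, and water 1 was far above the other 5 libraries. Its log2 fold change was -0.43 (standard error 0.22, limma adjusted p = 0.546), and without water 1 it was -0.18. The log2 ratio of Sds over Sdsl, with the pseudocount of 1 FPKM on each gene, was 4.85, 5.03 and 5.41 in extract livers, against 5.05, 5.52 and 5.42 in water livers, and these overlapped. The difference was -0.23 (two-sided exact permutation p = 0.2). A pseudocount of 0.1 or 0.01 gave -0.18 or -0.17 (exact permutation p = 0.6 for both). With any one library left out the difference lay between -0.39 and -0.11, and without water 1 and extract 3 it was -0.53.

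Around serine dehydratase, 15 genes of serine, glycine and threonine metabolism were listed and 12 tested. limma called 0 of them. At an unadjusted p below 0.05 there were 1 higher and 2 lower, against 6.5% and 3.82% of all tested genes. The lower ones were Sds and Gcat, a mitochondrial enzyme of threonine breakdown. Gcat had 33.8, 31.3 and 38.5 FPKM in extract livers, against 48.3, 53.7 and 47.7 FPKM in water livers (log2 fold change -0.52, limma adjusted p = 0.201), with no overlap. Amt, a subunit of the glycine cleavage system, was the higher one, at 24.4, 22.3 and 22.0 FPKM in extract livers, against 19.0, 17.7 and 19.2 FPKM in water livers (limma adjusted p = 0.393).

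Histidine is broken down in hepatocytes by 4 enzymes in turn. Hal makes urocanate from histidine, Uroc1 hydrates it, Amdhd1 opens the ring, and Ftcd passes the last fragment to folate. Along this route the groups overlapped at every step. Hal, on chromosome 10 from 93488768 to 93516761 (gene ID 15109), had 98.7, 65.6 and 92.9 FPKM in extract 1 to 3, against 69.4, 102.8 and 82.1 FPKM in water 1 to 3. Extract 2 was the lowest of all 6 libraries and water 2 the highest. Its log2 fold change was 0.01, with a 95% confidence interval of -0.46 to 0.48 (limma adjusted p = 0.992), and its sign turned under 9 of 19 alternatives, among them the 3 rescalings that set each library to its median, upper quartile or sum.

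Uroc1, on chromosome 6 from 90333239 to 90364551 (gene ID 243537), had 144.6, 152.6 and 152.2 FPKM in extract 1 to 3, against 138.4, 172.7 and 151.7 FPKM in water 1 to 3. The extract values lay inside the range of the water values. It varied least of the 9 genes, with the highest library at 1.25 times the lowest. The log2 fold change was -0.04 with a 95% confidence interval of -0.33 to 0.25 (limma adjusted p = 0.961). Amdhd1 had 83.0, 70.3 and 95.1 FPKM in extract livers and 69.9, 93.3 and 79.7 FPKM in water livers. Ftcd lay between 104.7 and 107.9 FPKM in extract livers and between 104.2 and 108.0 FPKM in water livers. Across the 8 genes listed for histidine use, limma called 0. At an unadjusted p below 0.05 there were 0, against 10.3% of all tested genes. The log2 ratio of Hal over Uroc1 was -0.55, -1.21 and -0.71 in extract livers, against -0.99, -0.74 and -0.88 in water livers, a difference of 0.05 (two-sided exact permutation p = 0.9) that turned to -0.07 without water 1 and extract 3. Hal and Amdhd1 both had their lowest extract value in extract 2, their lowest water value in water 1 and their highest water value in water 2.

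**Figure D3:**
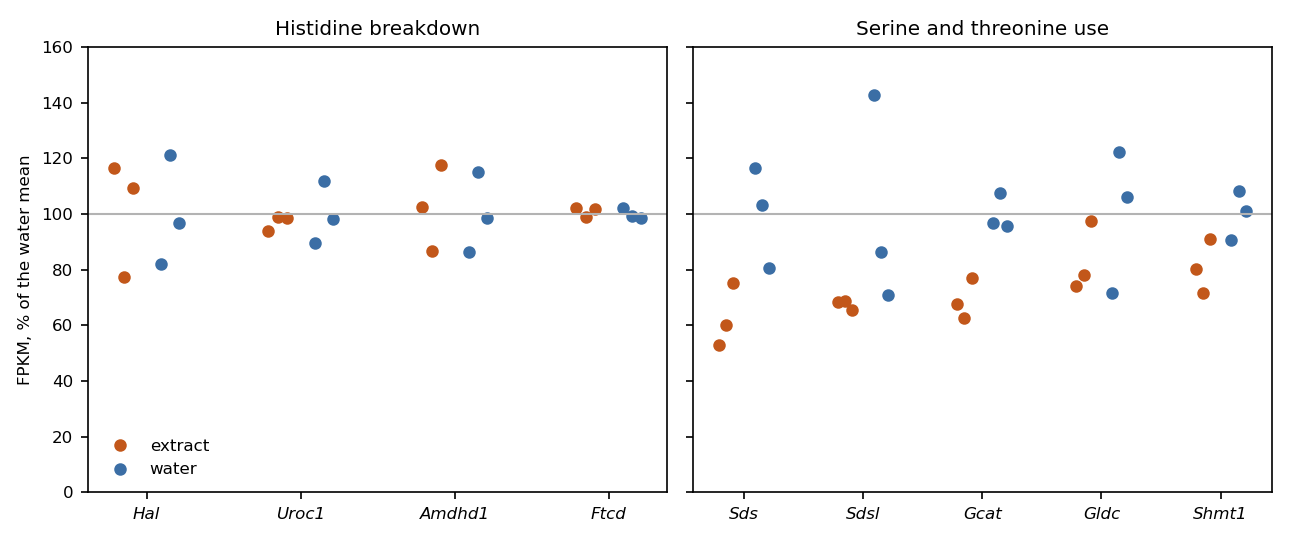
FPKM of each gene in each library as a percentage of that gene's water mean (vertical axis, from 0; the line marks the water mean) for 4 histidine-degrading enzymes and 5 enzymes of serine, glycine and threonine use, with extract points left of water points. The histidine genes overlap between the groups, whereas Sds, Sdsl and Gcat lie lower in every extract library than in any water library.

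Hsd17b13 encodes a lipid droplet protein of hepatocytes in the family of 17β-hydroxysteroid dehydrogenases. It lies on chromosome 5 from 103955442 to 103977388 on the minus strand (gene ID 243168). Hsd17b13 had 213, 266 and 406 FPKM in extract 1 to 3, against 426, 329 and 447 FPKM in water 1 to 3. Extract 1 and extract 2 were below every water library, while extract 3 was above water 2. The means were 295 ± 99.6 FPKM in extract livers and 401 ± 63.0 FPKM in water livers (SD, n = 3 each), with a log2 fold change of -0.48 (standard error 0.25, limma adjusted p = 0.562). The value was -0.74 without extract 3 and -0.275 without extract 1.

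Of 11 genes listed in the HSD17B family, 8 were tested. limma called 0. At an unadjusted p below 0.05 there were 2 higher and 1 lower, against 6.5% and 3.82% of all tested genes. Hsd17b2, which inactivates oestradiol and testosterone, had 137.9, 124.4 and 111.9 FPKM in extract livers, against 75.5, 64.8 and 84.8 FPKM in water livers (log2 fold change 0.73, limma adjusted p = 0.152). Hsd17b6, itself a periportal gene, had 594, 453 and 626 FPKM in extract livers, against 419, 412 and 390.4 FPKM in water livers (log2 fold change 0.44, limma adjusted p = 0.384). Hsd17b10, a mitochondrial enzyme of isoleucine breakdown, had 119.3, 115.7 and 125.8 FPKM in extract livers, against 184.5, 137.9 and 171.8 FPKM in water livers (log2 fold change -0.44, limma adjusted p = 0.323). None of these 3, named for their small p, overlapped between the groups, against no overlap in 15.9% of all tested genes.

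Aldh1b1 encodes a mitochondrial aldehyde dehydrogenase that oxidises acetaldehyde. It lies on chromosome 4 from 45799022 to 45804608 (gene ID 72535). Aldh1b1 had 38.5, 34.5 and 25.1 FPKM in extract 1 to 3, against 30.1, 53.1 and 33.0 FPKM in water 1 to 3. Water 2 was well above the other 5 libraries, which overlapped. Its log2 fold change was -0.22 with a 95% confidence interval of -0.77 to 0.34 (limma adjusted p = 0.847), and without water 2 it was 0.03. Of 16 listed aldehyde dehydrogenases, 14 were tested and limma called 0. At an unadjusted p below 0.05 there were 0 higher and 2 lower, against 6.5% and 3.82% of all tested genes. Aldh3a2, which oxidises fatty aldehydes, had 87.8, 79.9 and 74.6 FPKM in extract livers, against 105.4, 126.4 and 138.9 FPKM in water livers (log2 fold change -0.60, limma adjusted p = 0.201), with no overlap.

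Pigr encodes the polymeric immunoglobulin receptor, which in rodent hepatocytes carries IgA into bile. It lies on chromosome 1 from 130826684 to 130852249 (gene ID 18703). Pigr had 395, 265 and 374 FPKM in extract 1 to 3, against 267, 347 and 384 FPKM in water 1 to 3. The lowest value of each group was nearly the same, in extract 2 and water 1. The log2 fold change was 0.05 with a 95% confidence interval of -0.43 to 0.52 (limma adjusted p = 0.971), and it was -0.175 without water 1 and extract 3. Interferon can induce this receptor in human epithelial cells. The 21 interferon-response genes summed to 327, 429 and 157 FPKM in extract 1 to 3, against 119, 111 and 139 FPKM in water 1 to 3. Extract 1 and extract 2, with the highest interferon sums, had the highest and the lowest Pigr of all 6 libraries, and the part of interferon in Pigr was not tested. Transcripts of plasma and B cells, which make the IgA that Pigr carries, were scarce: the joining chain Jchain lay between 0.54 and 0.84 FPKM in extract livers and between 0.63 and 0.78 FPKM in water livers.

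The order of the 5 most abundant members by group mean differed between the groups, but neither order held in every library. In extract livers Cyp2f2 was followed by Pigr at 345 ± 70.0, Hsd17b13 at 295 ± 99.6, Sds at 212 ± 38.7 and Uroc1 at 149.8 ± 4.5 FPKM. In water livers it was followed by Hsd17b13 at 401 ± 63.0, Sds at 338 ± 61.1, Pigr at 333 ± 59.6 and Uroc1 at 154.3 ± 17.3 FPKM (SD, n = 3 each). In extract livers the SDs of Pigr and Hsd17b13, and of Hsd17b13 and Sds, overlapped, and in water livers those of Hsd17b13, Sds and Pigr did. The extract order of means was found only in extract 1, and the water order only in water 1. Hsd17b13 lay above Pigr in extract 2 (265.67 against 264.69 FPKM) and in extract 3 (406 against 374 FPKM). Water 3 had the same order as extract 2 and extract 3, with Hsd17b13 at 447, Pigr at 384 and Sds at 272 FPKM. Hal and Aldh1b1 came next in both groups. The lowest places were held by Cdh1 at 6.05 and Sdsl at 5.15 FPKM in extract livers, against Sdsl at 7.61 and Cdh1 at 2.49 FPKM in water livers.

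Other genes of both zones were read from 2 lists for comparison. Of 14 other periportal genes, all tested, limma called 0, and at an unadjusted p below 0.05 there were 1 higher and 5 lower, against 6.5% and 3.82% of all tested genes. Their median log2 fold change was -0.31, and 11 of the 14 values were negative, while 57.5% of all tested genes had a positive value. Asl, argininosuccinate lyase of the urea cycle, had 222, 222 and 281 FPKM in extract livers, against 506, 503 and 336 FPKM in water livers (log2 fold change -0.87, limma adjusted p = 0.197). Fbp1, the gluconeogenic fructose bisphosphatase, had 730.3, 717 and 621 FPKM in extract livers, against 920.1, 1067 and 978 FPKM in water livers (log2 fold change -0.52, limma adjusted p = 0.239). Neither gene's groups overlapped, and extract lay wholly below water in 5.88% of all tested genes. Both genes were named for their small p. Both lay on the same side as Sds, while Hsd17b6, given above, lay with Cyp2f2 and Cdh1.

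Of 18 pericentral genes, 16 were tested and limma called 0, with 0 higher and 4 lower at an unadjusted p below 0.05, against 6.5% and 3.82% of all tested genes. Their median log2 fold change was 0.00, with 8 values on each side. Tbx3, a transcription factor under Wnt control, had 2.82, 2.51 and 3.27 FPKM in extract livers, against 4.72, 5.73 and 7.02 FPKM in water livers (log2 fold change -0.81, limma adjusted p = 0.145). Oat, ornithine aminotransferase, had 93.6, 84.4 and 114.0 FPKM in extract livers, against 231, 222 and 143 FPKM in water livers (log2 fold change -1.0, limma adjusted p = 0.173). Neither gene's groups overlapped, and extract lay wholly below water in 5.88% of all tested genes. Tbx3 and Oat were named for their small p. Glul, the glutamine synthetase of the cells next to the central vein, had 318, 306 and 289 FPKM in extract livers and 363, 245 and 296 FPKM in water livers. Both zones held genes with low extract values and genes whose groups overlapped.

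**Figure D4:**
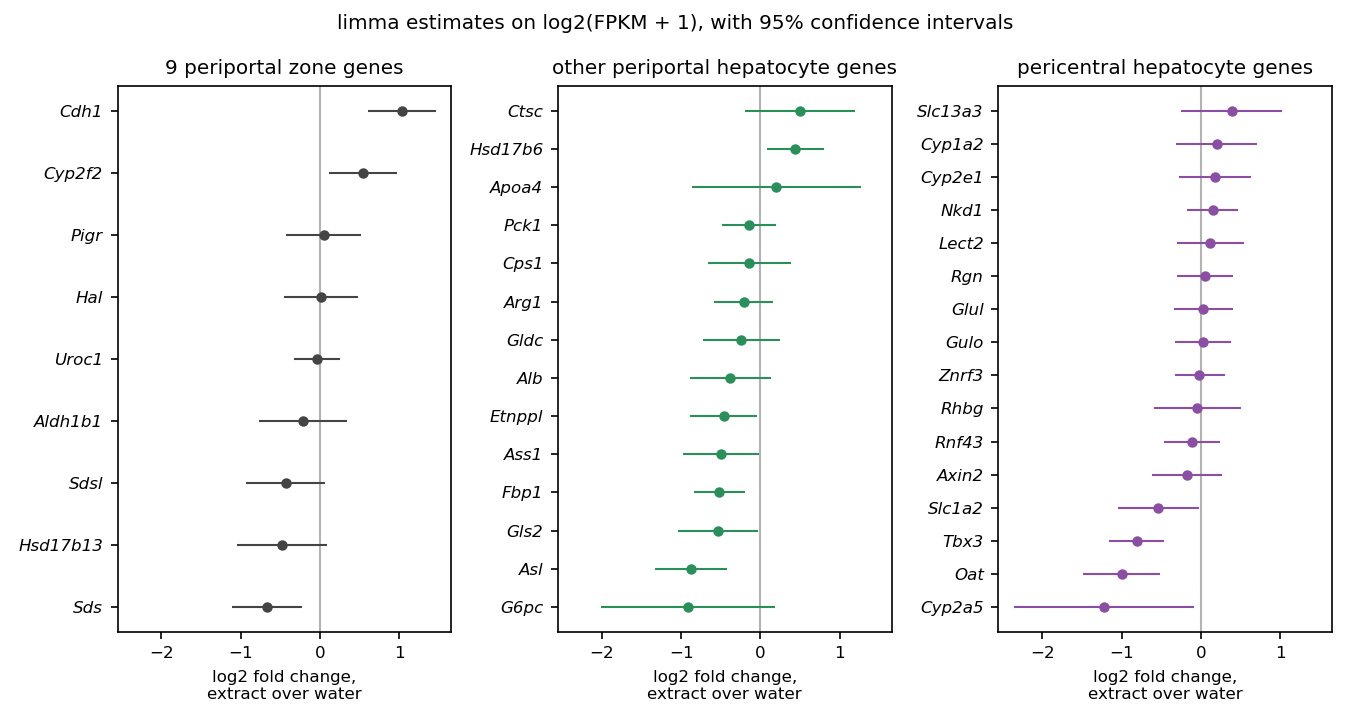
Log2 fold change, extract over water, on the log2(FPKM + 1) scale with 95% confidence intervals from limma (horizontal axes) for the 9 periportal zone genes, 14 other periportal genes and 16 tested pericentral genes. Cdh1 has the highest value shown among the 3 panels, at 1.03, and 11 of the 14 other periportal genes lie below 0.

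Signals that act on zonation were listed too. Of 13 Wnt and zonation regulators 10 were tested, and limma called 0. At an unadjusted p below 0.05 there were 1 higher and 1 lower, against 6.5% and 3.82% of all tested genes. The higher one was Tcf7l2, the β-catenin partner, at 4.81, 4.12 and 5.06 FPKM in extract livers, against 3.41, 3.10 and 3.46 FPKM in water livers (log2 fold change 0.39, limma adjusted p = 0.29), and the lower one was Tbx3. Of 14 genes that answer to glucagon or glucocorticoid, limma called 0. Those at an unadjusted p below 0.05 were 0 higher and 2 lower (Sds and Gls2), against 6.5% and 3.82% of all tested genes. Gls2, the liver glutaminase, had 94.2, 96.4 and 111 FPKM in extract livers, against 115, 207 and 131 FPKM in water livers (limma adjusted p = 0.461).

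Markers of other cells are given as sums of FPKM. Log2 fold changes were above 0 for 12 of 12 Kupffer cell markers (median 0.61), against 57.5% of all tested genes. Those markers summed to 224 to 342 FPKM in extract livers against 142 to 166 FPKM in water livers. However, limma called 0 of them, and 9 were higher at an unadjusted p below 0.05, against 6.5% of all tested genes. Markers of sinusoidal endothelium summed to 127 to 151 FPKM in extract livers and 145 to 172 FPKM in water livers, and those of stellate cells to 127 to 170.4 FPKM in extract livers and 115 to 139 FPKM in water livers. Of 11 sinusoidal markers, 10 had a log2 fold change below 0 and 1 above (median -0.13). Among 9 tested stellate markers, 5 were above 0 and 4 below (median 0.11). Markers of plasma and B cells, T and NK cells, neutrophils and pancreas summed to at most 11.2 FPKM in extract livers and 8.65 FPKM in water livers for any list. For the 21 interferon-response genes, limma called 0. At an unadjusted p below 0.05 there were 13 higher and 0 lower, against 6.5% and 3.82% of all tested genes. The part of these cells and genes in the values of the 9 periportal genes was not tested.

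The nearest genes in pattern were found from the root mean square difference between log2(FPKM + 1) profiles over the 6 libraries, each centred on its own mean. For Cyp2f2 they were Farp1, Synj2 and C1galt1, at 0.061 to 0.086. Those nearest to Cdh1 included Ddx58, at 0.146, and Trim14, at 0.199, and Ddx58, a sensor of viral RNA, is among the 21 interferon-response genes. The 3 nearest to Sds included Asl, at 0.137, and those to Sdsl included the pericentral glutamate transporter Slc1a2, at 0.078. Nearest to Hal was Cebpa, the gene of a hepatocyte transcription factor, at 0.043, and nearest to Pigr was Ugt1a1, the bilirubin-conjugating enzyme, at 0.049. Hsd17b13 was closest to Gm7102, Aldh1b1 to Tsc22d4 and Uroc1 to Usp19. By this measure, a gene that varies little lies near every other gene that varies little.

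**Figure D5:**
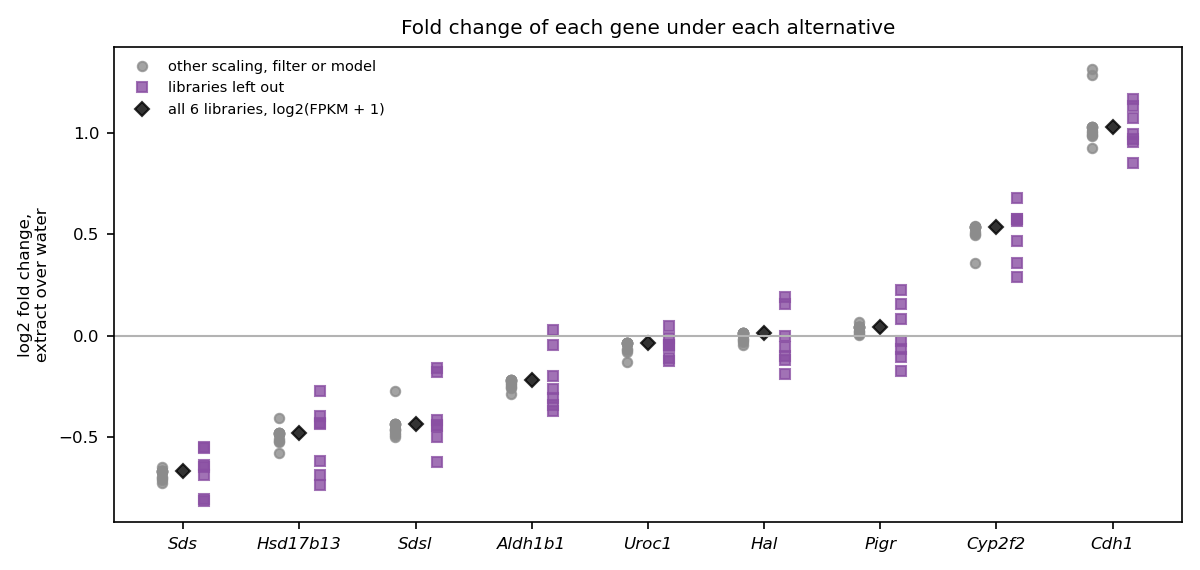
Log2 fold change, extract over water (vertical axis), of each of the 9 genes with all 6 libraries (diamonds), under other scalings, filters or models (circles) and with libraries left out (squares). Cdh1, Cyp2f2, Sds, Sdsl and Hsd17b13 keep their sign under every alternative shown, with Cdh1 between 0.85 and 1.32, whereas Hal, Uroc1, Pigr and Aldh1b1 cross 0.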

How the data were processed

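Mouse liver RNA was sequenced in 3 extract and 3 water libraries, grouped by the labels. Per the submitters' processing notes, the build was GRCm38 and the tools included RSEM 1.2.12 and HISAT2 2.0.4, with Bowtie2 2.2.5 and DESeq2 1.4.5 also named, and no roles are given. The deposited table gives 1 value per gene and library to 2 decimals and names no unit. They were read here as FPKM computed by the authors, because library sums differ where TPM would be equal. Multiplied by the longest GENCODE transcript of each gene and summed, they came to 118.1 to 120.8% of the total that FPKM allows. The longest transcript overstates the length of many genes, and the lengths that the authors used are not given in the sources used here, so the unit is an inference. FPKM depends on the other transcripts in a library, and at 2 decimals the read depth could not be recovered, so counting error is unknown. Of 22899 rows, 5161 were blank.

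limma 3.58.1 in R 4.3.3 was fitted with a trended prior to log2(FPKM + 1) of 10282 genes (1 FPKM or more in 3 or more libraries), with Benjamini-Hochberg adjustment over all of them. This scale understates the change of low genes such as Cdh1 and Sdsl. Ratios of 2 genes were compared by a two-sided exact permutation test over 20 assignments.

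The 9 genes and the gene lists were chosen with earlier results of these data known. All 9 are named, with up to the 3 smallest p-values per list, all histidine-degrading enzymes and genes among the 3 nearest patterns per gene. A few items that these rules would name are not reported here. Cdh2, Epcam, Krt7, Sox9, Jchain, Glul, Gldc, Shmt1 and Plbd2 were added after their values were seen. Coordinates are RefSeq GRCm38.p6, matched by gene ID, and overlapping genes were read from GENCODE on the same build.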

Additional observations from a re-analysis of the deposited data

How the results depend on the processing

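With 3 libraries a group, no result here has further replication, and the read depth, which sets the precision of low genes such as Cdh1, is unknown. Over all tested genes limma called 5, and 0 after centring each library on its median (1061 at unadjusted p below 0.05), 0 with no filter on low values (1566 at unadjusted p below 0.05), 2 after quantile normalization or with a pseudocount of 0.1 or 0.01, 133 with library weights, between 0 and 48 with any one library left out (48 without extract 3 and 0 or 1 without any other) and 68 without water 1 and extract 3. Of the 9 periportal genes 0 were called under these settings apart from library weights, which called 1 (Cdh1). By list, library weights called 2 pericentral genes (Oat and Tbx3), 2 adherens junction genes (Nectin3, and Cdh1 again) and 4 interferon-response genes. The serine, HSD17B, aldehyde dehydrogenase, Wnt (Tbx3 again) and Kupffer lists had 1 called gene each. The interferon list had between 0 and 12 calls with any one library left out and 8 without water 1 and extract 3. The cause of these differences was not tested.

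The log2 fold change of Hal, 0.01, was -0.031 with median centring, -0.015 with upper-quartile scaling, -0.023 at a common sum, -0.044 with library weights, between -0.12 and 0.19 with any one library left out, and -0.19 without water 1 and extract 3. That of Pigr, 0.05, lay between -0.10 and 0.22 with any one library left out and was -0.175 without water 1 and extract 3. That of Uroc1, -0.04, ran from -0.11 to 0.047 and that of Aldh1b1, -0.22, from -0.37 to 0.028 with any one library left out, the positive ends being without water 2. Over all alternatives the lowest value of Uroc1 was -0.13. The Hal over Uroc1 difference ran from -0.09 to 0.24 with any one library left out and was -0.07 without water 1 and extract 3. Cdh1 has no value with a mean of at least 5 FPKM required, since it did not reach it.

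Same-numbered libraries were not shown to be paired: their deviations correlated at -0.02, -0.18 and 0.12 across genes. With the replicate block limma called 0 genes (922 at unadjusted p below 0.05), and Cdh1, Cyp2f2 and Sds had adjusted p of 0.154, 0.451 and 0.416.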
